A study of Mus musculus with 82 samples.

Results

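Polycomb group proteins keep developmental and cell cycle genes silent by modifying histones. The genes described here encode 9 of their subunits: Ezh1, Ezh2, Eed, Suz12 and Jarid2 of Polycomb repressive complex 2 (PRC2), and Cbx2, Cbx7, Cbx8 and Bmi1 of the canonical form of Polycomb repressive complex 1 (PRC1). They were chosen by symbol, as 9 of the 55376 genes in the deposited count files, together with the histone peaks that the authors assigned to them by gene name. PRC2 methylates histone H3 at lysine 27 (H3K27me3): Ezh1 and Ezh2 are its alternative catalytic subunits, Eed binds the mark and Suz12 holds the core together, while Jarid2 is an accessory subunit that helps to target the complex. PRC1 reads the mark through the chromodomain of 1 Cbx protein, and Bmi1 belongs to the PCGF proteins that partner its ubiquitin ligase. In blood, Bmi1 is known for maintaining hematopoietic stem cells (HSCs) by repressing the Cdkn2a locus, Cbx7 for favouring self-renewal of HSCs, and Ezh2 for being the more abundant catalytic subunit in dividing cells.

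HSCs, the self-renewing source of all blood cells, were sorted from bone marrow of male C57BL/6J mice of 3 to 4 months (young, 4 mRNA-seq libraries) and 24 to 26 months (old, 8 libraries). Common myeloid progenitors (CMP), granulocyte-macrophage progenitors (GMP) and megakaryocyte-erythroid progenitors (MEP) came from young mice, with 2 libraries each. Old HSCs transduced with lentivirus carrying a control shRNA, shRNA1 or shRNA2, both directed against the shorter variant of Btaf1, were profiled after 3.5 days of culture, and again from bone marrow more than 4 months after transplantation into lethally irradiated young female recipients, with 2 libraries for each shRNA in each setting. Old and young HSCs were also profiled by ATAC-seq, which measures open chromatin (4 libraries per age), and by ChIP-seq for acetylated H3 lysine 27 (H3K27ac, 2 libraries per age), and young HSCs for H3K4me3 and H3K27me3 (2 libraries each). Per the methods, young HSC RNA came from pooled mice and each old library from 1 mouse, and transplanted libraries were pools. The methods also give transplanted HSCs another gate, RNA extraction, library kit and sequencer than fresh ones. For cultured cells, the paper does not say whether the 2 libraries of each shRNA came from different mice. The labels give the cultured and transplanted libraries the same extraction and kit, which for the transplanted ones is not what the methods give, and another kit for fresh HSCs and progenitors. The p-values measure the spread between these libraries, and in bulk samples a lower level cannot be told apart from fewer cells that express a gene.

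The mRNA libraries held 20475764 to 42737054 reads on genes, and the ATAC-seq libraries 15427933 to 26260337 reads on regions. Levels are given as CPM, each count scaled to a common total of reads on genes, or as CPM per kilobase of exon (RPKM) where genes are compared with each other. A set of 7 HSC markers summed to 1634 to 1899 CPM in fresh HSCs and to 15.9 to 95.5 CPM in the progenitors, with 2 of the 7 at 0 in MEP. Xist, which female cells express from the inactive X chromosome, lay at 2.40 to 4.81 CPM in transplanted libraries and at 3.23 to 9.78 CPM in fresh HSCs of males. Fold changes are from edgeR's normalization across genes (TMM), and a gene is called higher or lower at a Benjamini-Hochberg adjusted p below 0.05 over all genes tested.

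The 9 genes lie on 6 chromosomes in the mm10 build. Ezh1 spans chr11:101191115-101226463 on the minus strand, Ezh2 chr6:47530139-47595341 on the minus strand, Eed chr7:89954654-89980983 on the minus strand, Suz12 chr11:79993106-80034123 on the plus strand and Jarid2 chr13:44729474-44921643 on the plus strand. The PRC1 genes Cbx2 (chr11:119022962-119031270, plus strand) and Cbx8 (chr11:119036305-119040969, minus strand) are neighbours, Cbx7 lies at chr15:79915807-79971119 on the minus strand and Bmi1 at chr2:18677018-18686629 on the plus strand. Exons of 4 members share bases with a gene on the opposite strand: 174 bases of Ezh2 with Gm26625, 261 of Eed with E230029C05Rik, 178 of Suz12 with Gm26563 and 100 of Cbx7 with Apobec3. The labels and methods do not say whether the counting used strand, so reads from these bases cannot be told apart.

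The promoters of the core PRC2 genes differ in the letters around their start sites, and those of 5 members are shown because the results below turn on these genes and, for the PRC2 genes, on open chromatin there. Each is a window of 300 bases from RefSeq on GRCm38.p6, 5′ to 3′ on the gene's strand, from 250 bases before to 50 after the start, and 8 of the 9 members matched a window. Capitals mark CCAAT on either strand (ATTGG on the opposite one) and 8-base motifs of the kind bound by E2F factors (TTTCCCGC, TTTGGCGC, TTTCGCGC or TTTGCCGC, either strand), which do not overlap each other. The windows lie at chr6:47594981-47595280 (Ezh2, minus strand), chr11:79992856-79993155 (Suz12, plus), chr7:89980927-89981226 (Eed, minus), chr11:101226414-101226713 (Ezh1, minus) and chr15:79932597-79932896 (Cbx7, minus).
Ezh2: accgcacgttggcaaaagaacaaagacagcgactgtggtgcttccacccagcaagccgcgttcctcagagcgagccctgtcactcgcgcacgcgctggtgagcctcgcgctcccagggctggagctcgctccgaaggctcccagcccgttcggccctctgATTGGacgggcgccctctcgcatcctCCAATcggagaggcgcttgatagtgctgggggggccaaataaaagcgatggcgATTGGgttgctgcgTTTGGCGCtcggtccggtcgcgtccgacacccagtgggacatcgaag
Suz12: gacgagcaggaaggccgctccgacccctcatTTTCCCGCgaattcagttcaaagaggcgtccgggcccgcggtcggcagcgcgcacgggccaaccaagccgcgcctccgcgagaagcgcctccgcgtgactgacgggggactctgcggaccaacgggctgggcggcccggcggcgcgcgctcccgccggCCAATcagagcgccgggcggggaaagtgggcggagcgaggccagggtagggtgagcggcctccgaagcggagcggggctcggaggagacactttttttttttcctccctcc
Eed: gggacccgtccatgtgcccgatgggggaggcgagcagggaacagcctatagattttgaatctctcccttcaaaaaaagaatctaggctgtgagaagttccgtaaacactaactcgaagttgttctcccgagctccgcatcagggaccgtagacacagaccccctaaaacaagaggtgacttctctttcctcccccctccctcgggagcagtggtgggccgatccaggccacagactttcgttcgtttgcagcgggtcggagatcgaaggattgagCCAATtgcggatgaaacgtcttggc
Ezh1: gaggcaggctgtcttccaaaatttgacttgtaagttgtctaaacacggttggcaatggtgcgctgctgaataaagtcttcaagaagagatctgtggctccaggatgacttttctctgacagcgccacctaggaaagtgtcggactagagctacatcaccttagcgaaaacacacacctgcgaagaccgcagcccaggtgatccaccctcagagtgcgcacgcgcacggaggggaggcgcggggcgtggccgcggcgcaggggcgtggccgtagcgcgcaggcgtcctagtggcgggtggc
Cbx7: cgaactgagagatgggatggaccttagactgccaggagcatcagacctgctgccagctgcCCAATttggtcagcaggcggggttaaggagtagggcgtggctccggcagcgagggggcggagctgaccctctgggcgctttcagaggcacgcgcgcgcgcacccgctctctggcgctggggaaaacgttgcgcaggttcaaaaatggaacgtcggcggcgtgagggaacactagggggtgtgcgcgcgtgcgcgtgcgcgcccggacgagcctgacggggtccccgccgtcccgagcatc
The Ezh2 window held 3 CCAAT boxes and 1 E2F-type motif, TTTGGCGC, which begins 3 bases from the start site. The Suz12 window held 1 CCAAT and 1 TTTCCCGC, Eed and Cbx7 held 1 CCAAT each, and the Ezh1 window held neither kind. Of all 32851 RefSeq windows of this length, 37.4% held a CCAAT and 2.26% an E2F-type motif, so a CCAAT is common and describes no site by itself. All 5 windows are rich in CpG, from 17 CpG in Eed to 41 in Suz12, with 31 in Ezh2, 23 in Ezh1 and 33 in Cbx7.

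Per kilobase of exon, Bmi1 was the highest member in young HSCs at 28.1 ± 0.467 RPKM (SD, n = 4), and Cbx8 the lowest at 3.14 ± 0.213 RPKM. Between them stood Eed at 20.1 ± 0.573, Ezh1 at 19.7 ± 0.774, Cbx7 at 18.4 ± 0.679 and Suz12 at 18.3 ± 0.796 RPKM. Eed and Ezh1 lay within their spread of each other, and so did Cbx7 and Suz12. Jarid2 followed at 10.3 ± 0.318, Ezh2 at 7.95 ± 0.657 and Cbx2 at 6.94 ± 0.465 RPKM. In these HSCs Ezh1 was thus the higher of the alternative catalytic subunits, whereas in MEP Ezh2 stood at 32.0 RPKM and Ezh1 at 4.44 RPKM. The length of each gene is the union of its annotated exons, so these levels assume that all exons are used.

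**Figure D1:**
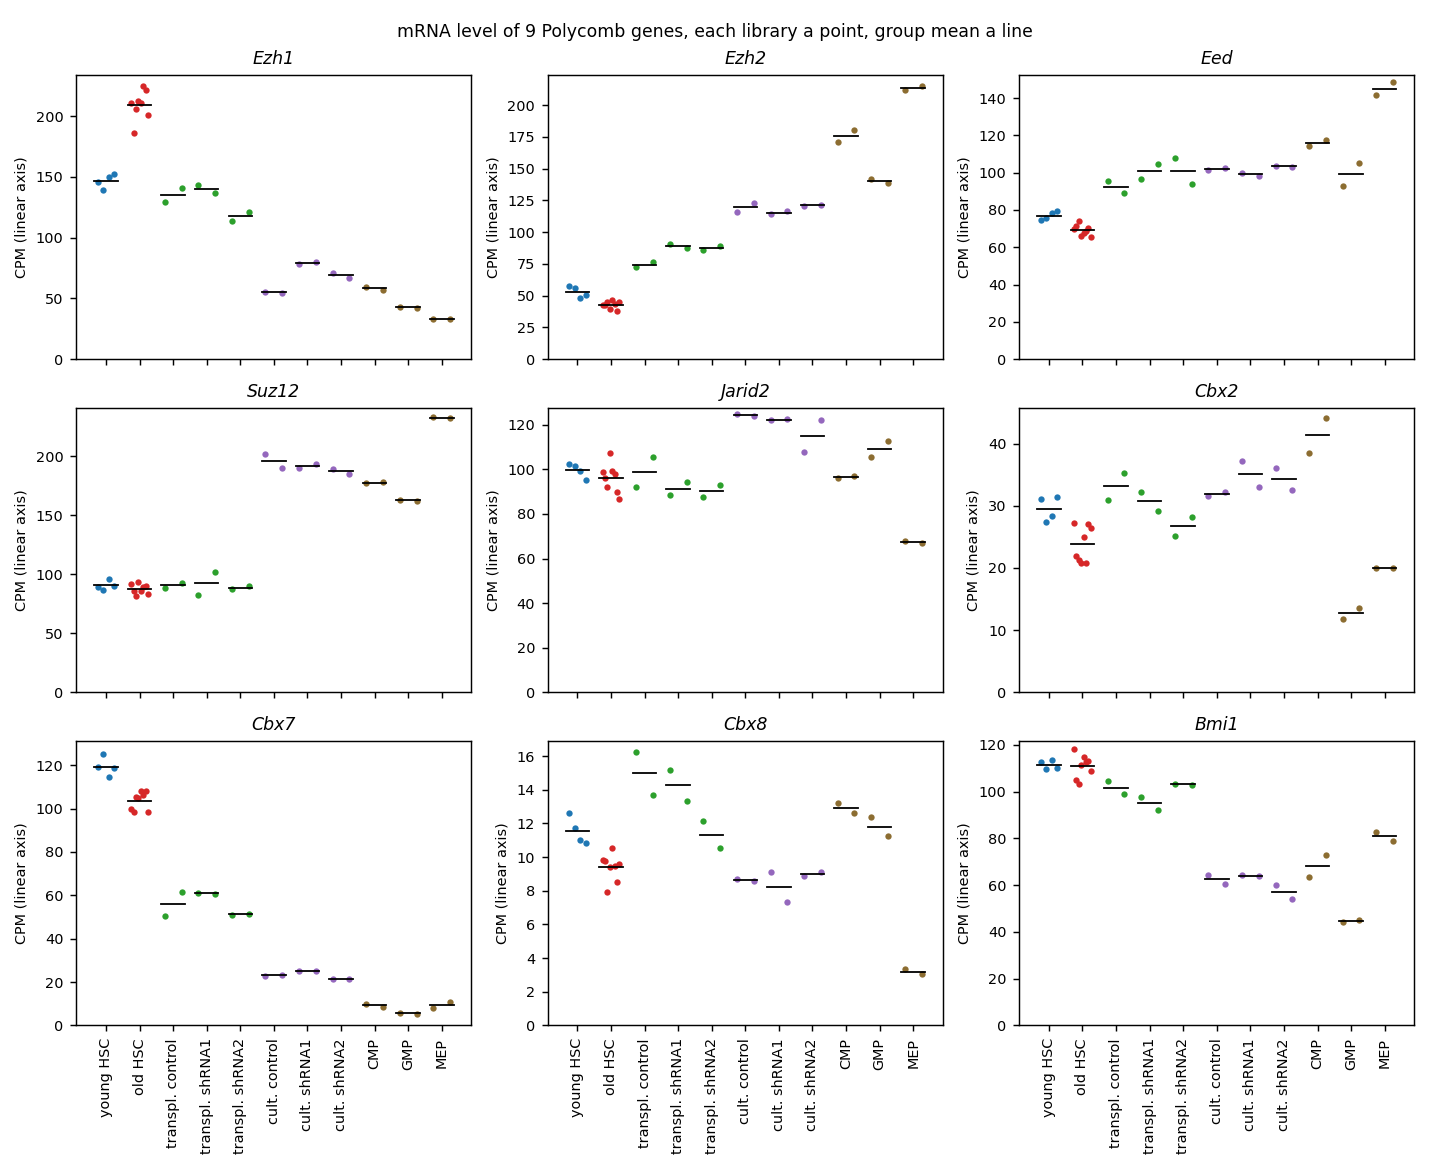
Level of each of the 9 genes (CPM, linear axis from 0) in every mRNA-seq library, with a panel per gene, a point per library and a line at the mean of each of the 11 groups. Ezh1 is highest in old HSCs (186 to 225 CPM) and lowest in MEP (32.9 to 33.2 CPM), Ezh2 runs the other way, and Cbx7 lies at 115 to 125.3 CPM in young HSCs and at 5.40 to 10.8 CPM in the progenitors.

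With age, 1 of the 9 genes rose and 4 fell, and the changes were small. Ezh1 rose 1.46-fold in old HSCs, while Ezh2 fell 1.21-fold, as did 3 chromodomain subunits of PRC1, Cbx2 (1.21-fold), Cbx8 (1.2-fold) and Cbx7 (1.1-fold). Suz12, Jarid2 and Bmi1 were not called and lay within 0.03 of no change on the log2 scale. Of the 21522 genes tested, 11.9% were called higher and 8.67% lower with age, and the median log2 fold change was -0.11 over the members and -0.01 over all genes. Of all calls, 57.9% were higher, and 44.5% when libraries were scaled by their totals alone. None of the 9 changed by more than 1.5-fold.

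Ezh1 stood at 146, 139, 150 and 152 CPM in the young libraries, and at 186 CPM (lowest), 211 CPM (median) and 225 CPM (highest) in the 8 old ones. Every old library was above every young one. The means were 209 ± 12 CPM (SD, n = 8) in old and 147 ± 5.76 CPM (n = 4) in young HSCs, a log2 difference of 0.55 ± 0.048 (SE, edgeR's quasi-likelihood test, adjusted p = 6.11e-09). Over 18 alternative settings this difference stayed between 0.51 and 0.58.

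Ezh2 was measured at 57.5, 56.1, 48.5 and 50.3 CPM in young libraries and between 37.7 CPM and 46.3 CPM, with a median of 42.9 CPM, in old ones. The ages did not overlap, although the gap between the highest old and the lowest young library was narrow. Ezh2 averaged 42.7 ± 2.91 CPM in old and 53.1 ± 4.39 CPM in young HSCs (log2 difference -0.27 ± 0.063, adjusted p = 0.00222, edgeR). Its other core partners in PRC2 moved less: Eed averaged 69.2 ± 2.95 CPM in old and 76.9 ± 2.19 CPM in young HSCs, and the libraries of the ages did not overlap, but the difference of -0.11 ± 0.047 did not pass (adjusted p = 0.105, edgeR; 0.00916 with library totals). For Suz12 the difference was -0.01 ± 0.046, with overlapping libraries (adjusted p = 0.959, edgeR). Jarid2 averaged 96.0 ± 6.37 CPM in old and 99.6 ± 3.09 CPM in young HSCs (adjusted p = 0.897, edgeR).

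Among the PRC1 genes, Cbx7 was at 119, 125.3, 115 and 119 CPM in young libraries and at 98.5 to 108 CPM, median 105 CPM, in old ones, with no overlap (log2 difference -0.16 ± 0.042, adjusted p = 0.00538, edgeR). Without a filter on low counts its adjusted p was 0.0943. Cbx2 was at 31, 27.35, 28.4 and 31.4 CPM in young libraries and at 20.8 to 27.28 CPM, median 23.4 CPM, in old ones. Here the ages just failed to overlap (-0.27 ± 0.082, adjusted p = 0.0178, edgeR), and the call was lost without young library 1 (adjusted p = 0.0845) or young library 4 (adjusted p = 0.0937). Cbx8, the least abundant member, averaged 9.38 ± 0.812 CPM in old and 11.6 ± 0.785 CPM in young HSCs (-0.26 ± 0.090, adjusted p = 0.0422, edgeR). Its call was lost in 12 of 18 alternative settings, among them the omission of any 1 of the 4 young libraries or of old library 3, 4, 6, 7 or 8 (adjusted p up to 0.197). It was kept in the other settings, among them the omission of any other old library. Bmi1 averaged 111 ± 4.97 CPM in old and 112 ± 1.86 CPM in young HSCs (0.03 ± 0.043, adjusted p = 0.703, edgeR).

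Other lists moved with age in the same libraries. A sum over 12 proliferation genes ran from 1055 to 1172 CPM in young and from 751 to 922 CPM in old HSCs, and 4 of the 12 were called lower and none higher. The summed B cell markers (8 genes, none at 0 throughout a group) ran from 87.1 to 156 CPM in young and from 37.2 to 45.4 CPM in old HSCs. The 6 myeloid markers ran from 144 to 171 CPM in young and from 306 to 351 CPM in old HSCs, and the 5 megakaryocyte markers from 488 to 508 CPM and from 856 to 1185 CPM. The 6 erythroid markers ran from 152 to 213 CPM in young and from 38.1 to 187 CPM in old HSCs. Their part in the changes of the Polycomb genes was not tested.

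**Figure D2:**
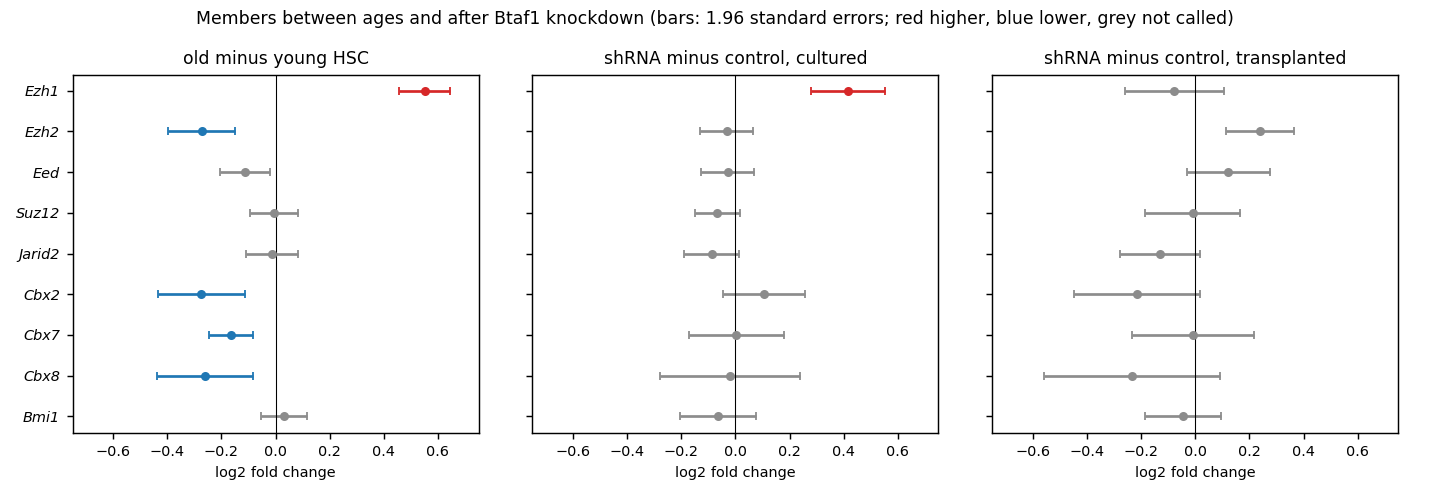
Log2 fold change of the 9 genes between old and young HSCs, between shRNA and control in cultured old HSCs, and between shRNA and control in transplanted HSCs (points, with bars of the 95% interval from the standard error of the edgeR fit; red, called higher; blue, called lower; grey, not called). With age Ezh1 lies at 0.55 and Ezh2, Cbx2, Cbx7 and Cbx8 lie below 0; after knockdown the only coloured point is Ezh1 in culture, at 0.41.

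In young HSCs, all 9 genes carried an H3K4me3 peak, the mark of active promoters, near their start. The strongest were on PRC2 genes: the signal (scaled by the authors to a fixed number of reads) was 28.5 and 27.8 in the libraries of young HSCs at Jarid2, 26 and 27.9 at Ezh2, 25.6 and 27.9 at Eed and 25.4 and 27.4 at Suz12. These peaks ranked at the 95.7 to 97.6 percentile of all 33199 peaks. The promoter peaks of the other members were lower, at 21.8 and 21.1 for Bmi1, 18.4 and 20.7 for Cbx8, 16.0 and 18.2 for Cbx2, 17.4 and 16.6 for Ezh1 and 16.2 and 16.4 for Cbx7. Ezh1 therefore had a weaker H3K4me3 peak than Ezh2 although its mRNA per kilobase was higher. In all, 17 H3K4me3 peaks were assigned to the members, 6 of them to Jarid2.

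The mark that PRC2 itself deposits was assigned to 3 of the 9 genes in young HSCs. At Cbx8, a domain of 46000 bases (chr11:119032000-119077999) covered the whole gene with a signal of 3.11 and 3.20, at the 99.99 percentile of the 55820 H3K27me3 domains. At Bmi1, a domain of 4000 bases (chr2:18677000-18680999) began at the start site with a signal of 1.54 and 2.09 (99.6 percentile), under the H3K4me3 peak described above. Both Cbx8 and Bmi1 thus carried H3K27me3 while their mRNA was present at 11.6 ± 0.785 and 112 ± 1.86 CPM in young HSCs. The third domain, in an intron near the start of Ezh2 (chr6:47591000-47593999), was near the floor of the table, with a signal of 0.0451 and 0.118. Old libraries of H3K4me3 and H3K27me3 were not used here.

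At the level of open chromatin, 5 regions at the start of members were slightly less accessible in old HSCs. Of 19 ATAC-seq regions that overlap a member's H3K4me3 or H3K27ac peak, 17 had enough reads to be tested and 5 were called lower (adjusted p below 0.01 over all regions), 1 each at the start of Ezh2, Suz12, Eed, Cbx8 and Cbx2. No region was called higher. Of all 89245 regions tested, 13.7% were called higher and 9.54% lower with age. Of the 44886 regions that overlap any H3K4me3 or H3K27ac peak, the rule that chose the members' regions, 14.4% were called lower, against 29.4% of the members' 17. Of the 15906 regions at H3K4me3 peaks near a start site 25% were called lower, against 5 of the 12 member regions of that kind (41.7%). All 17 had a log2 fold change below 0, with a median of -0.22. Over the 44886 regions 59.7% were below 0 with a median of -0.06, and over the promoter regions 80.5% with a median of -0.14.

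The Ezh2 promoter region (chr6:47594029-47595727, spanning the start site and the window printed above) held 76.9, 81.7, 82.2 and 82.0 CPM in the young libraries, against 69.4, 68.7, 67.2 and 64.5 CPM in the old ones. No old library reached a young one (log2 difference -0.27 ± 0.0445, adjusted p = 1.67e-06, edgeR). At Suz12 (chr11:79992466-79993537), the values were 21.9, 21.6, 22.2 and 22.9 CPM (young) and 18.1, 16.1, 18.3 and 16.8 CPM (old) (-0.37 ± 0.0746, adjusted p = 6.68e-05, edgeR), and the mRNA of Suz12 did not differ with age as described above. At Eed (chr7:89980064-89981407), the region with the most reads among the members, they were 107, 106, 102 and 105 CPM (young) and 94.3, 90.7, 91.3 and 95.9 CPM (old) (-0.19 ± 0.0409, adjusted p = 0.000157, edgeR). Again the ages did not overlap.

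The Ezh1 promoter region (chr11:101225937-101226743) was open at a much lower level, and its ages overlapped: 5.81, 4.54, 6.87 and 6.74 CPM in young against 5.64, 4.86, 6.88 and 5.63 CPM in old libraries (-0.09 ± 0.138, adjusted p = 0.657, edgeR). Ezh1 was the member whose mRNA rose, and no difference in accessibility at its start was called. Cbx8 (chr11:119040568-119041676; -0.31 ± 0.0879, adjusted p = 0.00402, edgeR) averaged 16.2 ± 1.10 CPM at the young age and 13.2 ± 0.943 CPM at the old age. Cbx2 (chr11:119022647-119023696; -0.40 ± 0.121, adjusted p = 0.00722, edgeR) averaged 8.45 ± 0.827 CPM in young and 6.48 ± 0.595 CPM in old ones. These last calls were the least stable. Cbx2 did not pass without young library 2, 3 or 4 or old library 5, 7 or 8 (adjusted p 0.0102 to 0.0528), nor with library totals, and Cbx8 did not pass without young library 3 or 4 or old library 6 or 7 (0.0137 to 0.0263). The promoter of Cbx7 (-0.19 ± 0.114) and that of Bmi1 (-0.10 ± 0.050) were not called, nor was any of the Jarid2 regions, the largest of which was an intronic region at -0.64 ± 0.219 (adjusted p = 0.0190, edgeR).

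**Figure D3:**
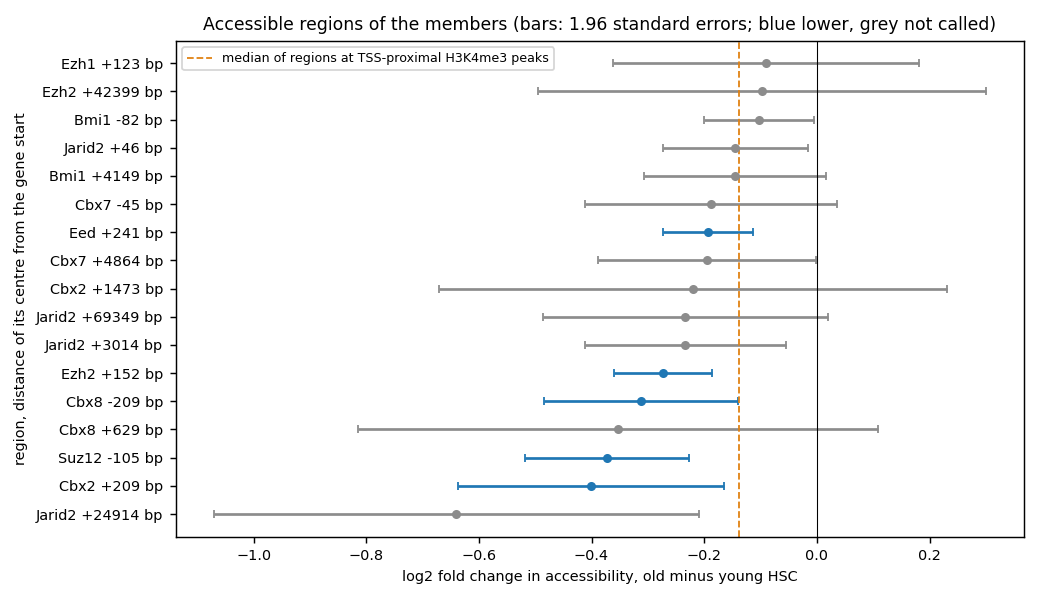
Log2 fold change of accessibility between old and young HSCs at the 17 tested regions of the members (points, labelled by gene and distance from the start site in bp, with bars of the 95% interval from the standard error of the edgeR fit; blue, called lower; grey, not called). All points lie below 0, and the dashed line at -0.14 is the median of all regions at H3K4me3 peaks near a start site.

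H3K27ac, a mark of active promoters and enhancers, showed no called difference at the members. Of their 15 peaks, none was called by limma (0 also at an unadjusted p below 0.05, and 0 by a ratio above 1.5 between the means with a ratio of at least 1.2 in every pairing of libraries). The smallest adjusted p, 0.309, was that of an intron peak of Jarid2, with a signal of 1.85 and 1.16 in young and 1.03 and 0.881 in old libraries. Of all 39557 peaks, 2.53% were called higher and 0.415% lower. Of all calls, 85.9% were higher, and 55.9% once each library was brought to 1 common median. The members' log2 differences, on log2(signal + 0.5), ran from -0.44 to 0.19, with 8 of 15 below 0. At the Ezh2 promoter the signal was 6.28 and 5.38 in young and 4.79 and 4.92 in old libraries, and at the Eed promoter 6.66 and 6.20 against 5.28 and 5.90. For both, the old values lay below the young ones, though with 2 libraries per age the differences did not pass. The Cbx8 promoter went the other way, with 1.64 and 1.62 in young and 1.95 and 1.90 in old libraries, and did not pass either (0.19 on the log2 scale). The Ezh1 promoter had 4.04 and 3.34 in young and 3.71 and 4.23 in old libraries, which overlapped.

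Old HSCs in culture and old HSCs recovered after transplantation differed in 8 of the 9 genes. Taking the control shRNA alone, 4 members were higher in culture, Suz12 (2.39-fold), Ezh2 (1.77-fold), Jarid2 (1.39-fold) and Eed (1.22-fold), and 4 were lower, Ezh1 (2.23-fold), Cbx7 (2.20-fold), Cbx8 (1.57-fold) and Bmi1 (1.47-fold). The PRC2 genes except Ezh1 were thus called higher, and the PRC1 genes except Cbx2 (0.09 ± 0.096) lower. Of 19518 genes tested, 24% were called higher and 24.3% lower. Of all calls, 49.7% were higher, and 34.9% with library totals alone, a scaling that moved the median of all genes from -0.01 to -0.16 on the log2 scale. When all 6 cultured libraries were compared with all 6 transplanted ones, shRNA libraries included, these 8 calls had the same direction and Cbx2 was also called higher in culture (0.29, adjusted p = 0.00324, edgeR). The gate, and the extraction and kit that the methods give for transplanted HSCs, cannot be told apart from the setting here.

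Ezh1 was at 55.2 and 54.6 CPM in cultured and at 130 and 141 CPM in transplanted control libraries (-1.15 ± 0.066, adjusted p = 2.38e-06, edgeR). Ezh2 was at 116 and 123 CPM in cultured and at 72.5 and 76.5 CPM in transplanted ones (0.83 ± 0.063, adjusted p = 1.30e-05, edgeR). The alternative catalytic subunits differed in opposite directions. Suz12 was at 202 and 190 CPM against 88.7 and 92.9 CPM (1.26 ± 0.058, adjusted p = 7.47e-07, edgeR), the largest rise among the members. Cbx7 was at 22.9 and 23.2 CPM against 50.6 and 61.6 CPM (-1.14 ± 0.108, adjusted p = 4.32e-05, edgeR). Eed differed by 0.29 ± 0.061 (adjusted p = 0.00430, edgeR) and, with library totals, by 0.14 (adjusted p = 0.0799), and the Cbx8 call was lost without cultured control 2 (adjusted p = 0.0555). Cycling genes moved in the same samples: the 12 proliferation genes were all called higher in culture, with sums of 3815 to 3842 CPM against 1733 to 1935 CPM. Cell type markers moved too: the 7 HSC markers summed to 592 to 596 CPM in cultured and 1174 to 1382 CPM in transplanted controls, and the 5 megakaryocyte markers to 1252 to 1288 CPM and 429 to 610 CPM. The 8 B cell markers summed to 17.4 to 18.7 CPM and 30.3 to 32.6 CPM, the 6 myeloid ones to 171 to 180 CPM and 195 to 297 CPM, and the 6 erythroid ones overlapped. No HSC or megakaryocyte marker was at 0 throughout a group, whereas up to 3 B cell, 2 myeloid and 2 erythroid markers were. The part of these lists in the differences of the Polycomb genes was not tested.

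The knockdown is read first from its target. In culture, Btaf1, which encodes a regulator of the TATA-binding protein, was at 137 and 141 CPM with the control and at 110 to 119 CPM with either shRNA (log2 difference -0.31 ± 0.047, adjusted p = 0.00151, edgeR). Counts per gene do not separate the shorter variant from the others. In transplanted cells it was at 161 and 165 CPM with the control and at 118 to 139 CPM with the shRNAs, without overlap (-0.37 ± 0.077, adjusted p = 0.791, edgeR).

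In cultured old HSCs, Ezh1 was the only one of the 9 genes called after knockdown, and it rose 1.33-fold. It stood at 55.2 and 54.6 CPM with the control, at 78.4 and 79.9 CPM with shRNA1 and at 70.9 and 67.2 CPM with shRNA2. All 4 knockdown libraries were above both controls (74.1 ± 6.07 CPM, n = 4, against 54.9 ± 0.374 CPM, n = 2; 0.41 ± 0.070, adjusted p = 0.00369, edgeR). Of 19763 genes tested, 1.70% were called higher and 1.66% lower. Either shRNA alone gave a call, at 0.50 for shRNA1 (adjusted p = 1.76e-07) and 0.33 for shRNA2 (adjusted p = 0.00298), in fits of its libraries and the controls. The call was lost when a single control was left, at 0.43 without control 1 (adjusted p = 0.0862) and 0.41 without control 2 (adjusted p = 0.0970). Between the fresh HSCs of the ages, Btaf1 itself was higher in old HSCs (0.53 ± 0.094, adjusted p = 0.000807, edgeR).

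The other 8 genes were not called in culture, with log2 differences from -0.09 (Jarid2) to 0.10 (Cbx2). Ezh2 was at 116 and 123 CPM with the control, 114 and 117 CPM with shRNA1 and 121 and 121 CPM with shRNA2, so the groups overlapped (-0.03 ± 0.050, adjusted p = 0.833, edgeR). Suz12, Eed, Bmi1, Cbx7 and Cbx8 overlapped as well. Jarid2 and Cbx2 did not overlap, but were far from a call (adjusted p = 0.477 and 0.595, edgeR). The share of all genes whose libraries lie apart in this way was not counted. Of the 12 proliferation genes, 5 were called lower after knockdown, with sums of 3448 to 3787 CPM against 3815 to 3842 CPM. The 6 myeloid markers summed to 203 to 254 CPM with the shRNAs and 171 to 180 CPM with the control, and the 6 erythroid ones to 22.9 to 24.6 CPM and 31.4 to 31.8 CPM, while the sums of HSC, megakaryocyte and B cell markers overlapped. The part of these lists in the rise of Ezh1 was not tested.

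After transplantation no gene was called at all. Of 20350 genes tested, 0% were higher and 0% lower by edgeR, although 666 and 472 genes were at an unadjusted p below 0.05, and DESeq2 called 38 higher and 22 lower. Ezh2 was at 72.5 and 76.5 CPM with the control, 90.5 and 87.5 CPM with shRNA1 and 85.8 and 89.3 CPM with shRNA2. All 4 knockdown libraries were above both controls, but the difference did not pass (0.24 ± 0.065, adjusted p = 0.852, edgeR). How many of all genes separate in this way was not counted. Ezh1, the gene called in culture, was at 130 and 141 CPM with the control, 143 and 137 CPM with shRNA1 and 114 and 121 CPM with shRNA2 (-0.08 ± 0.094, adjusted p = 0.961, edgeR). The shRNA1 libraries overlapped the controls, and both shRNA2 libraries lay below them. The other 7 members lay between -0.23 (Cbx8) and 0.12 (Eed) and were not called. Among them Cbx2 was at -0.22, Jarid2 at -0.13, Bmi1 at -0.05 and both Suz12 and Cbx7 at -0.01. The test of the difference between the cultured and the transplanted effect gave 0.49 ± 0.124 for Ezh1 (adjusted p = 0.159, edgeR) and -0.27 ± 0.0786 for Ezh2 (adjusted p = 0.234, edgeR), so neither effect was shown to differ between the settings. Over the 6 transplanted libraries the summed myeloid markers ran from 191 to 453 CPM and the erythroid ones from 14.3 to 109 CPM. The proliferation genes summed to 1733 to 1935 CPM with the control, 1941 to 2067 CPM with shRNA1 and 1884 to 1932 CPM with shRNA2, with none of the 12 called and a median log2 difference of 0.14. Their part in the values of Ezh2 was not tested.

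The largest fold change of any member was that of Cbx7 along differentiation. In young HSCs compared with the mean of CMP, GMP and MEP, Cbx7 was 11.1-fold higher, Ezh1 2.45-fold and Bmi1 1.29-fold, whereas Ezh2 was 4.51-fold lower, Suz12 2.87-fold and Eed 2.12-fold. Cbx2 (-0.03 ± 0.074) and Cbx8 (0.09 ± 0.103) were not called. Jarid2 was called lower (-0.30 ± 0.041), but was 0.16 higher with library totals alone. Most genes differed here, as 58.0% of the 25716 tested were called higher in HSCs and 29.7% lower, and the median over all genes was 0.85. Only Ezh1 and Cbx7 of the 9 members lay above that median. Of all calls, 66.1% were higher, and 76.8% with library totals, a scaling that moved the median of all genes from 0.85 to 1.31 and brought the members called higher from 3 to 6, with Jarid2, Cbx2 and Cbx8 joining.

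Cbx7 was at 115 to 125.3 CPM in the 4 young HSC libraries, at 9.86 and 8.61 CPM in CMP, 5.66 and 5.40 CPM in GMP and 7.97 and 10.8 CPM in MEP (log2 difference 3.47 ± 0.069, adjusted p = 1.01e-21, edgeR). No progenitor library came near an HSC library. Ezh1 was at 139 to 152 CPM in HSCs, 59.8 and 57.1 CPM in CMP, 43.2 and 42.2 CPM in GMP and 32.9 and 33.2 CPM in MEP (1.29 ± 0.046, adjusted p = 2.71e-17, edgeR). Ezh2 was at 48.5 to 57.5 CPM in HSCs and at 171 and 181 CPM, 142 and 139 CPM, and 212 and 215 CPM in CMP, GMP and MEP (-2.17 ± 0.049, adjusted p = 7.47e-21, edgeR). In CPM these groups did not overlap for either catalytic subunit, but with TMM the step of Ezh2 between CMP and GMP was not called (-0.13 ± 0.068, adjusted p = 0.170, edgeR). Suz12 averaged 90.6 ± 3.94 CPM in HSCs and 163 to 233 CPM in the progenitor groups (-1.52 ± 0.040, adjusted p = 1.23e-19, edgeR), and Eed 76.9 ± 2.19 CPM and 99.2 to 145 CPM (-1.09 ± 0.045, adjusted p = 5.09e-16, edgeR). The 12 proliferation genes were all called lower in HSCs, with sums of 1055 to 1172 CPM against 4682 to 6736 CPM. Their part in these differences was not tested, and the labels name no sequencing batch. The young HSC libraries held 1364079 to 1717132 spike-in reads beside 20475764 to 24122404 reads on genes. The counts of the progenitor libraries, with 33177394 to 36510850 reads on genes, list no spike-ins, so whether any were added is not known. A difference in library preparation between HSCs and progenitors could not be told apart from the cell type.

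Among the progenitors, PRC1 subunits differed between some of the groups, and so did PRC2 subunits. Cbx8 was at 3.32 and 3.06 CPM in MEP, at 13.2 and 12.6 CPM in CMP and at 12.4 and 11.2 CPM in GMP. It was thus 3.73-fold lower in MEP than in CMP (-1.90 ± 0.167, adjusted p = 1.29e-09, edgeR) and 3.90-fold lower than in GMP (SE 0.168 on the log2 scale, adjusted p = 8.04e-10, edgeR). GMP and CMP were not called apart for Cbx8 (0.07 ± 0.153, adjusted p = 0.911, edgeR). Cbx2 was at 38.5 and 44.1 CPM in CMP, 20.1 and 20.0 CPM in MEP and 11.8 and 13.6 CPM in GMP, in an order that differs from that of Cbx8. GMP were 2.84-fold lower than CMP (-1.51 ± 0.117, adjusted p = 1.17e-09, edgeR) and MEP 1.90-fold lower than CMP (-0.93 ± 0.113, adjusted p = 2.60e-07, edgeR), while MEP were 0.58 ± 0.118 higher than GMP on the log2 scale. Cbx7, low in all 3 groups, was lower in GMP than in CMP (-0.54 ± 0.1247, adjusted p = 0.00181, edgeR, and 0.0501 when the 6 progenitor libraries were fitted alone). It was higher in MEP than in GMP (0.69 ± 0.1247, adjusted p = 6.21e-05, edgeR), and MEP and CMP overlapped. Bmi1 was highest in MEP, at 82.7 and 79.0 CPM, and lowest in GMP, at 44.1 and 45.2 CPM (MEP over GMP 0.78 ± 0.073, adjusted p = 3.78e-09, edgeR), with CMP between them and called apart from both (MEP over CMP 0.37 ± 0.072, GMP over CMP -0.41 ± 0.073). Jarid2 ran in the opposite direction, at 68.0 and 66.9 CPM in MEP and 106 and 113 CPM in GMP (-0.77 ± 0.063, adjusted p = 4.22e-10, edgeR), again with CMP called apart from both (-0.39 ± 0.063 for MEP and 0.37 ± 0.063 for GMP).

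The core of PRC2 was highest in MEP. Ezh2, Eed and Suz12 were called higher in MEP than in CMP, by 0.40 ± 0.067, 0.44 ± 0.066 and 0.51 ± 0.057, and higher than in GMP, by 0.53 ± 0.068, 0.47 ± 0.066 and 0.44 ± 0.057. Ezh1 was lower in MEP than in CMP (-0.70 ± 0.073) and than in GMP (-0.44 ± 0.074). Between GMP and CMP none of these 3 core genes was called, and Ezh1 was lower in GMP (-0.26 ± 0.072, adjusted p = 0.00901, edgeR), a call lost without CMP library 1 or GMP library 2 (adjusted p = 0.0868 and 0.0839). With library totals Ezh2 (-0.33) and Eed (-0.23) were called lower in GMP as well. In all, 4 members were higher and 4 lower in MEP than in CMP, against 21.1% and 28.4% of all genes, and 6 were higher and 3 lower in MEP than in GMP, against 21.3% and 25.3%. In GMP against CMP 1 was higher (Jarid2) and 4 were lower (Ezh1, Cbx2, Cbx7 and Bmi1), against 12.3% and 14.7% of all genes. There 45.5% of all calls were higher, and 19.8% with library totals. By the TMM factors, that scaling lowered the log2 differences by 0.19, and those of MEP against CMP by 0.12. Of the 12 proliferation genes, 11 were called higher and none lower in MEP than in CMP, 8 higher and 2 lower in MEP than in GMP, and 7 higher and 1 lower in GMP than in CMP, and their part in these differences was not tested.

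The balance of the catalytic subunits summarises these comparisons. The ratio of Ezh1 to Ezh2 mRNA per kilobase was 2.23 to 2.78 in the 4 young HSC libraries and 3.96 to 5.29 in the 8 old ones. In transplanted old HSCs it was 1.61 to 1.65 with the control shRNA, 1.40 to 1.42 with shRNA1 and 1.19 to 1.22 with shRNA2, and in culture 0.399 to 0.427, 0.615 to 0.617 and 0.497 to 0.528. It was 0.284 to 0.313 in CMP, 0.273 to 0.274 in GMP and 0.139 in MEP. Fresh and transplanted HSCs thus held more Ezh1 than Ezh2 mRNA, and cultured HSCs and progenitors held less. The ratio is given as a description without a test, since its parts were tested above, and it was computed within each library, so that the scaling of libraries does not enter it.

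**Figure D4:**
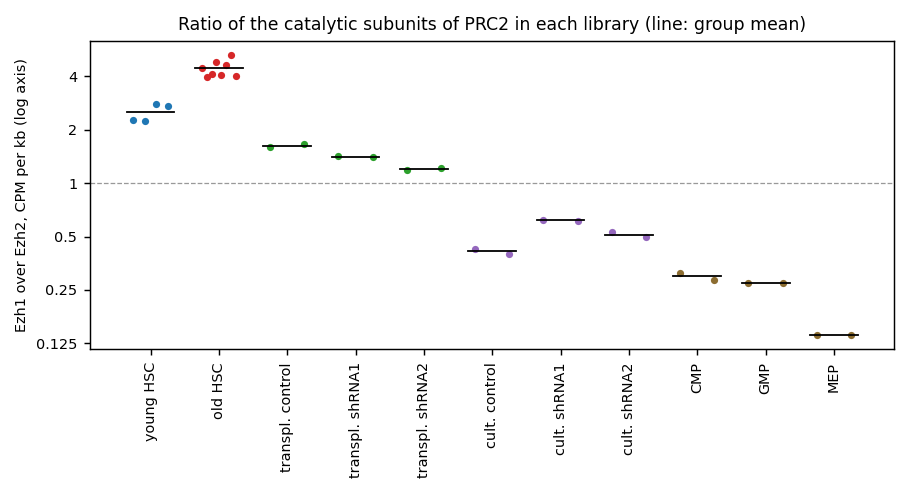
Ratio of Ezh1 to Ezh2 mRNA (both as CPM per kilobase of exon) in each mRNA-seq library, on a log axis, with a point per library and the 11 groups side by side. Old HSCs lie highest (3.96 to 5.29), followed by young HSCs (2.23 to 2.78), and MEP lie lowest (0.139), with cultured HSCs and progenitors below 1.

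Over the 11 groups, the mean levels of several members on the log2 scale moved in opposite blocks. Pearson's r was -0.932 between Ezh1 and Ezh2 and 0.937 between Ezh1 and Cbx7, and it was 0.939 between Ezh2 and Eed and -0.905 between Ezh1 and Suz12. Jarid2 followed neither block, with r of 0.06 to Ezh1 and -0.16 to Ezh2, nor did Cbx2, with 0.30 and -0.09. Cbx8 was weakly related to both (0.56 and -0.46), and Bmi1 stood nearer to Ezh1 (0.78 and -0.69). Of 10554 genes with at least 10 CPM on average, those most like Ezh2 were Pole2 (r = 0.997) and Mcm6 (0.993), which act in DNA replication, and Dnajc9 (0.996), a histone chaperone. Among those most like Ezh1 were Nbeal1 (0.983) and Zkscan3 (0.982). These correlations describe 11 groups from experiments that differ in kit and depth, and they carry no test.

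Further genes of the Polycomb system were read from a list of 37, of which 36 were in the files. With age, 3 of them were called higher and 6 lower, against 11.9% and 8.67% of all genes, with a median log2 change of -0.06 over the list and -0.01 over all genes. Epop, an accessory subunit of PRC2, rose 2.34-fold (16.3 ± 1.9 CPM in old and 7.18 ± 0.67 CPM in young HSCs, adjusted p = 1.91e-09, edgeR), Pcgf2, the closest relative of Bmi1, 1.57-fold and Pcgf6 1.28-fold. Phf19, another accessory subunit of PRC2, fell by 0.47 on the log2 scale, Bcorl1 by 0.37 and Lcor by 0.24. In cultured knockdown cells 35 were tested and 1 was called, Rnf2, a ubiquitin ligase of PRC1 (-0.24, adjusted p = 0.0242, edgeR). Of all genes, 1.70% were called higher there and 1.66% lower. None of the list was called after transplantation, where edgeR called no gene at all.

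Between culture and transplantation, 11 of the 35 of these genes that were tested were higher and 6 lower in culture, against 24% and 24.3% of all genes (median 0.10 over the list and -0.01 over all genes). Phf19 (1.70) and Epop (1.23) were the highest on the log2 scale, and Phf1 (-1.57), Ring1 (-0.91), the other ubiquitin ligase, and Phc3 (-0.75) the lowest. Phf1 and Phf19 are related accessory subunits of PRC2 and moved in opposite directions. In young HSCs against progenitors, 19 were higher and 13 lower: Phf1 averaged 56.4 ± 3.4 CPM in HSCs and 3.07 ± 2.2 CPM in progenitors (4.01 on the log2 scale), and the chromodomain gene Cbx6 261 ± 3.3 CPM and 35.9 ± 14 CPM (2.49). Asxl3 averaged 2.44 CPM in HSCs, with at most 4 reads in a progenitor library. L3mbtl2 (-1.67), Rbbp4 (-1.25), a histone-binding subunit of PRC2, and Epop (-1.14) were lower in HSCs. For Epop the progenitors lay on either side of the HSCs, with 6.58 to 8.01 CPM in HSCs, 28.0 and 18.4 CPM on average in CMP and GMP and 2.94 CPM in MEP. Of all genes, 58.0% were higher in that comparison and 29.7% lower, and the median of the list, 0.17, was under that of all genes, 0.85.

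Among progenitors, 5 of the 36 were higher and 11 lower in GMP than in CMP, against 12.3% and 14.7% of all genes. In MEP, 13 were higher and 12 lower than in CMP (21.1% and 28.4% of all genes), and 15 and 9 than in GMP (21.3% and 25.3%). The medians of the list were -0.10, 0.06 and 0.11, and those of all genes 0. Epop was 8.77-fold lower in MEP than in CMP, at 2.94 ± 0.39 against 28.0 ± 1.8 CPM, and Auts2 averaged 0.169 CPM in MEP and 19.9 CPM in CMP. Pcgf2, Pcgf6 and Cbx6 were called higher in MEP than in GMP (1.24, 1.06 and 1.24).

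Known targets of Polycomb repression were read in the same libraries. Cdkn2a, the locus that Bmi1 is known to repress, had 0 to 5 reads in fresh HSC libraries, 2 to 10 in cultured, 10 to 29 in transplanted and 0 in progenitor libraries, at most 0.771 CPM, so its level was near the limit of detection throughout. With age, the cell cycle inhibitor Cdkn1a rose (0.71 ± 0.14) while Cdkn1c (-0.27), Hoxa9 (-0.25) and Hoxa10 (-0.21) fell. In cultured knockdown cells Cdkn1a was higher (0.42 ± 0.08, adjusted p = 0.0108, edgeR) and Cdkn1c lower (-0.59 ± 0.10, adjusted p = 0.00508, edgeR). In culture against transplantation, Cdkn1a (3.77) and Cdkn2b (3.93) were higher and Hoxa10 (-1.49), Cdkn1c (-0.77) and Hoxa9 (-0.76) lower. In young HSCs Hoxa10 (5.00) and Hoxa9 (2.01) were higher than in progenitors and Cdkn1a (-1.77) lower. Cdkn1a averaged 4.44 CPM in HSCs, 31.6 and 14.4 CPM in CMP and GMP but 2.90 CPM in MEP, so that MEP were not on the side of the other progenitors. Cdkn1c was at 87.0 CPM in HSCs and 0.280 CPM on average in progenitors.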

How the data were processed

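Gene expression was measured by mRNA-seq, and chromatin by ATAC-seq and ChIP-seq. For mRNA-seq, the authors used STAR on mm10 after trimming, and deposited raw featureCounts counts per gene of GENCODE M22. For ATAC-seq, the authors aligned with BWA, removed duplicates and multi-mapped reads, and deposited raw counts per consensus region. For histone marks, the authors deposited a signal per peak from libraries scaled to a fixed number of reads. Whether counting used strand or multi-mapped reads is not stated in the labels or methods. The fold change columns of the histone tables hold the authors' own comparison of the ages (a ratio and its log2) and were not used. A further 8 columns of per-sample values (4 ATAC-seq, 4 histone) could not be tied to a listed sample and were not used, and 92 spike-in rows were left out of library totals.

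Counts kept by filterByExpr were scaled with TMM and tested with edgeR 4.0.16 (robust quasi-likelihood, R 4.3.3), with Benjamini-Hochberg adjustment over all genes. ATAC-seq regions needed more than 1.5 CPM in at least 4 libraries. H3K27ac was tested with limma 3.58.1 on log2(signal + 0.5). Progenitors and young HSCs shared 1 fit of 10 libraries. Errors after ± are SD between libraries for levels and SE of the fit for log2 differences. Gene places came from GENCODE M21, start sites and promoter windows from RefSeq. Alternatives were DESeq2 1.42.0, its size factors, no filter, a fold change above 1.5, a replicate block, other pseudocounts and each library left out. Library totals without TMM, the test of the difference between the knockdown effects and the sets of background regions were added after seeing the data. The tests were tried on simulated data.

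The members and gene lists were chosen with earlier results of these data known. All 9 members are named in every comparison of mRNA and of accessibility. Of the further Polycomb genes and targets, at most 3 called genes in each direction are named, those with the largest log2 change, and Cdkn2a always. Likeness used the 3 genes with the highest Pearson's r over group means of log2(CPM + 0.5). Some genes that these rules pick are not reported here.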

Additional observations from a re-analysis of the deposited data

Results flagged for a closer look

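Within the young ATAC-seq libraries, a single low value stood apart at 2 promoters of the members. At the Cbx7 promoter region, 1 young library held 7.45 CPM and the others 8.60 to 8.66 CPM, a gap of 0.949 of the whole range, against a critical value of 0.829 for 4 samples. At the Ezh2 promoter region, 1 young library held 76.9 CPM and the others 81.7 to 82.2 CPM, a gap of 0.917 of the range. At Ezh2 the low young library was still above every old library (64.5 to 69.4 CPM), and at Cbx7 it lay among the old ones (7.08 to 7.79 CPM). Among the 56 groups of values examined in this way, chance flags about 1 in 20.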

How the results depend on the processing

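Over 104 single results and 1427 values under alternative settings, 1311 kept their direction and their side of the threshold, 43 dropped below it, 9 rose above it and 64 changed sign. Of the 48 called results, 1 changed sign, Jarid2 in young HSCs against progenitors (0.16 with library totals). The cause of these changes was not tested.

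Without a filter on low counts, 2 members were lower with age, and Suz12 (0.0097) and Jarid2 (0.0019) changed sign. With a fold change above 1.5, 0 members were higher and 0 lower with age, 0 were higher in cultured knockdown cells and 0 regions were lower. With library totals, Bmi1 with age was -0.0092, Cbx2 between culture and transplantation -0.056, Cbx2 in HSCs against progenitors 0.43, and Suz12 and Cbx8 in GMP against CMP -0.13 and -0.13, while 6 members were higher in HSCs. With all 6 cultured against all 6 transplanted libraries, 5 members were higher and 4 lower in culture. Cbx2 in HSCs was 0.054 with DESeq2 and 0.053 with its size factors. With shRNA1 alone, Bmi1 was 0.0069 in culture, and Ezh1, Suz12 and Cbx7 were 0.036, 0.012 and 0.11 after transplantation. With shRNA2 alone, Ezh2, Eed, Cbx7 and Cbx8 were 0.015, 0.015, -0.096 and 0.056 in culture and Bmi1 0.018 after transplantation. H3K27ac scaled to the same median gave -0.074 at Bmi1, -0.053 at the Ezh2 gene body, -0.060 at the Jarid2 intron peak at 44768128 and -0.013 at Suz12.

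With each library left out in turn, 2 to 4 members were lower with age, 0 to 1 were higher in cultured knockdown cells, 3 to 5 regions and 0 to 1 H3K27ac peaks were lower. The results that changed sign were all uncalled. With age Suz12 ran from -0.039 to 0.024 and Jarid2 from -0.027 to 0.014. In cultured knockdown cells Ezh2 ran from -0.072 to 0.011, Cbx7 from -0.030 to 0.039 and Cbx8 from -0.050 to 0.053. After transplantation Suz12 ran from -0.073 to 0.029 and Cbx7 from -0.15 to 0.14. Cbx2 ran from -0.0053 to 0.19 between culture and transplantation and from -0.062 to 0.020 in HSCs against progenitors. In GMP against CMP Eed ran from -0.11 to 0.044 and Cbx8 from -0.017 to 0.14, and in MEP against CMP Cbx7 from -0.090 to 0.34. The Ezh2 gene body region ran from -0.25 to 0.064. H3K27ac ran from -0.29 to 0.30 at Bmi1, -0.21 to 0.061 at Cbx7, -0.024 to 0.22 at Ezh1, -0.24 to 0.28 at the Ezh2 gene body, -0.12 to 0.26 at Suz12, and at Jarid2 from -0.42 to 0.29, -0.088 to 0.012, -0.11 to 0.14 and -0.044 to 0.40.

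Replicate numbers shared between groups mark no pair in the labels, and deviations of same-numbered libraries correlated at -0.22 to 0.20. With the replicate block, 3 members were lower with age (Cbx8 was lost), and Suz12 and Jarid2, uncalled, were 0.019 and 0.038. The block changed no other count of called members.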
